A study of Homo sapiens with 4 samples.

Results

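ZHX3, CYP27B1, BRD2, SLC38A7, OSTM1, TMEM164 and C7orf43 were 7 of 57815 rows of an FPKM table (fragments scaled to transcript length and library depth) from 2 gastric cancer lines in which the homeobox gene HOXB9 was targeted by siRNA. They were chosen because their change, log2((siHOXB9 FPKM + 1)/(siScramble FPKM + 1)), was among the largest shared increases in AGS and MKN1. The higher values in the siHOXB9 libraries are therefore the rule of choice and are described here without a test. The groups were AGS cells with siHOXB9 and AGS cells with siScramble, a control siRNA by its name, and MKN1 cells with siHOXB9 and MKN1 cells with siScramble. Each group was 1 library of poly-A-selected RNA, made with a random-primed Illumina kit. All 4 groups carried the label WT and had been transfected with a lipid reagent, Lipofectamine, so no untransfected cells were measured. The sources used here do not give the number of siRNAs, the dose or the time after transfection. With 1 library per line and siRNA there was no replicate of any group, so the effect of siHOXB9 and the chance difference between 2 libraries cannot be told apart.

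The 7 genes belong to different parts of the cell. ZHX3 and BRD2 act in the nucleus, ZHX3 as a zinc finger homeobox repressor and BRD2 as a reader of acetylated histones. CYP27B1 is the mitochondrial enzyme that makes active vitamin D, SLC38A7 and OSTM1 work at the lysosome, TMEM164 is an acyltransferase of ether phospholipids, and C7orf43, now named TRAPPC14, is a subunit of a TRAPP complex of vesicle traffic. Some HOX factors bind DNA at sites that hold TAAT or, for the posterior paralogs to which HOXB9 belongs, TTTAT.

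The start-site sequences are shown because HOXB9 is a DNA-binding factor and the genes were chosen on its knockdown. RefSeq (GRCh38.p14) windows of 300 bases, 250 before to 50 after a gene start, were found for 5 of the 7 genes, 11 windows in all. CYP27B1 and TRAPPC14 had no window in that table. The words TAAT, TTTAT and the E-box CACGTG were searched on both strands and are in capitals. A match on the other strand reads ATTA or ATAAA as printed, and in ATTAAT a match on each strand overlaps. The ZHX3 start at chr20:41317682-41317981 (minus strand) and its second start at chr20:41300071-41300370 (minus strand) had very different base composition. The other windows printed are those of SLC38A7 at chr16:58684721-58685020 (minus strand) and of BRD2 at chr6:32971345-32971644 (plus strand), the remaining windows that held a TAAT.

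ZHX3, window 1: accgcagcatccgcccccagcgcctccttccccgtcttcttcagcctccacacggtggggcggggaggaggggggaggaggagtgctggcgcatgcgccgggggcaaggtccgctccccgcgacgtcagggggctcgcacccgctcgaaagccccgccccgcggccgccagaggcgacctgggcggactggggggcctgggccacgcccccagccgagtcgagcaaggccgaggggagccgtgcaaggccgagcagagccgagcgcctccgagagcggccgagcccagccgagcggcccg

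ZHX3, window 2: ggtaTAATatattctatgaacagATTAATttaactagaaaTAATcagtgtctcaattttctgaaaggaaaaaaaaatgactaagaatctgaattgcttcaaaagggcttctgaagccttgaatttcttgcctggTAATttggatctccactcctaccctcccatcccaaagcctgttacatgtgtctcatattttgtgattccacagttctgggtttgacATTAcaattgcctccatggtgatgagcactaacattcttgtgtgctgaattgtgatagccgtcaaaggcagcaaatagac

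SLC38A7, window 1: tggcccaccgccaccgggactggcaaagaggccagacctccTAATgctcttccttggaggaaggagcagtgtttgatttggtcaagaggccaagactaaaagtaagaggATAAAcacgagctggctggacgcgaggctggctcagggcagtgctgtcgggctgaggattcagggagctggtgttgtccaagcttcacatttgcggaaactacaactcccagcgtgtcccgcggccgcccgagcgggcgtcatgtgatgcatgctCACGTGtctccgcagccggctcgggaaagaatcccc

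BRD2, window 3: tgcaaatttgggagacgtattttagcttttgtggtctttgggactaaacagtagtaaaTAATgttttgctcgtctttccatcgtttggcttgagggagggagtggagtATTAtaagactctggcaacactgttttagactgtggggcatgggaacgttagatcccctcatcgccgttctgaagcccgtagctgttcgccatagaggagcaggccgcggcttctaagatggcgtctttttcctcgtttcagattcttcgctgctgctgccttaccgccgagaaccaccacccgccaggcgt

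The first ZHX3 window had 77.0% G or C, 36 CG pairs and no TAAT. The second had 37.7% G or C, 1 CG pair and 6 matches to TAAT. SLC38A7 was the gene whose window held TAAT, TTTAT and CACGTG once each, and window 3 of BRD2 held TAAT 2 times. TAAT was thus found in 3 of 11 windows, against 50.2% of all 35116 RefSeq windows of this length. By gene it was found in 3 of the 5 genes with a window, while the share over all is by window only. TTTAT was in 1 of 11 windows, against 34.9% of all, and CACGTG was in 1 of 11, against 7.26% of all. The OSTM1 window and the TMEM164 windows held none of these words. Also searched, and not in capitals, were CCAAT, the word bound by NF-Y, and TGACNNNGC, a core of the antioxidant response element. CCAAT was in 2 of 11 windows, 2 times in that of OSTM1 and once in window 2 of TMEM164, against 34.6% of all. TGACNNNGC was in 2 of 11, those of OSTM1 and window 1 of ZHX3, against 13.3% of all. The median G or C content was 67.3% over the 11 windows and 58.7% over all windows, so the 11 windows hold fewer A and T bases. Such a match is a string of letters, and HOXB9 binding was not measured.

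HOXB9 itself was lower with siHOXB9 in both lines. In AGS it had 4.44 FPKM with siHOXB9 and 16.4 FPKM with siScramble, so 27.0% remained. In MKN1 it had 0.218 FPKM with siHOXB9 and 1.14 FPKM with siScramble, so 19.1% remained. The MKN1 control level was close to the 1 FPKM minimum used for a measured row, and the MKN1 siHOXB9 level was below it. On the scale with 1 FPKM added, the change of HOXB9 was -1.68 in AGS and -0.81 in MKN1, the latter under 1 in size. The libraries had an estimated 10690000 to 12980000 fragments and 12537 to 12770 rows of at least 1 FPKM. Epithelial KRT8 was high in all 4 (1880 and 1566 FPKM in AGS, 1230 and 1077 FPKM in MKN1, with siHOXB9 and with siScramble), while EPCAM was at 359 and 328 FPKM in AGS and at 2.70 and 2.14 FPKM in MKN1. CDH1 was at 3.28 and 1.63 FPKM in AGS and at 0.285 and 0.0752 FPKM in MKN1, in the same order. Summed over 4 leukocyte markers the level was 0.168 to 0.739 FPKM in the 4 libraries, with CD3E at 0 in all. Of 4 fibroblast markers, 2 measured in AGS and 4 in MKN1, none passed a change of 1 in size. Their summed level was 30.6 FPKM with siHOXB9 and 16.2 FPKM with siScramble in AGS, and 65.7 FPKM with siHOXB9 and 55.1 FPKM with siScramble in MKN1. Most of it was COL1A1, at 29.3 FPKM with siHOXB9 and 15.8 FPKM with siScramble in AGS, and 43.8 FPKM with siHOXB9 and 35.04 FPKM with siScramble in MKN1. DCN was at 0 in both AGS libraries, PDGFRB had changes of 0.79 in AGS and -0.24 in MKN1, and the part of these genes in the results was not tested. In bulk RNA, fewer cells of a type and less RNA per cell cannot be told apart.

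Across the 7 genes, the level was 9.95 to 33.7 FPKM in AGS with siHOXB9 and 0.418 to 12.2 FPKM in AGS with siScramble. In MKN1 it was 6.68 to 36.0 FPKM with siHOXB9 and 0.429 to 12.5 FPKM with siScramble. All 7 were low or moderate in the control libraries, where each lay below the median measured row (15.0 FPKM in AGS siScramble, 12.9 FPKM in MKN1 siScramble). All 7 rows passed the filter of 1 FPKM in either library of a line, in both lines. CYP27B1 passed it in AGS, and BRD2 in MKN1, through the siHOXB9 library alone. A change of at least 1, which is 2-fold on the scale with 1 FPKM added, was reached by 5 of the 7 in AGS, where 1.68% of 13252 measured rows reached it. It was reached by 5 of the 7 in MKN1 as well, where 2.1% of 13122 measured rows did. ZHX3, CYP27B1, BRD2 and SLC38A7 reached it in both lines, as did 0.182% of the 11547 rows measured in both. These counts follow from how the genes were chosen. A change of the same size downward was seen for 2.21% of rows in AGS and 1.94% in MKN1. The median change of the 7 genes was 1.07 in AGS and 1.18 in MKN1, and the median of all measured rows was -0.06 and 0.09.

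**Figure D1:**
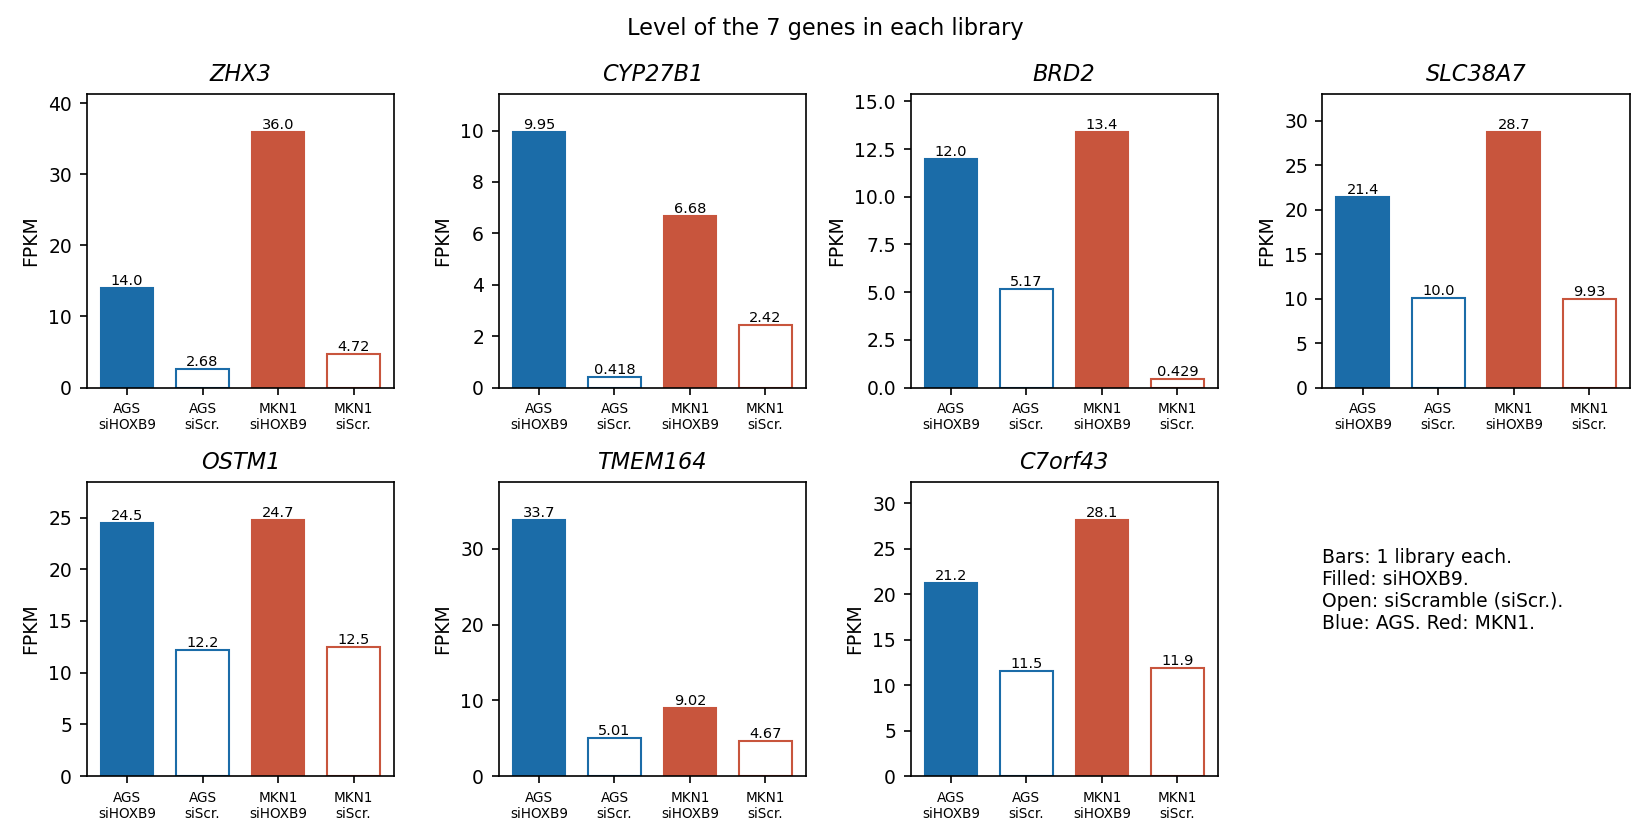
Level of the 7 genes in each of the 4 libraries, in FPKM on a linear axis from 0, 1 bar per library and no error bar since each group is 1 library. Every siHOXB9 bar is above its siScramble bar in the same line, as the choice of genes requires, and ZHX3 in MKN1 is highest at 36.0 FPKM.

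When protein-coding rows that reached 5 FPKM somewhere in both lines were ordered by the smaller of their 2 changes, ZHX3 held rank 1, CYP27B1 rank 3, BRD2 rank 4, SLC38A7 rank 5 and OSTM1 rank 6. C7orf43 and TMEM164 held ranks 9 and 10. The other genes of the first 10 ranks were HMOX1, PBXIP1 and CDKN2B, which are not described further. Just inside the limit, TMEM164 had a smaller change of 0.82. Just outside it at rank 11, SPHK2, a sphingosine kinase, had changes of 0.90 in AGS and 0.80 in MKN1. The step from the last gene inside to the first outside was thus 0.02, and the set has no sharp edge at that end.

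**Figure D2:**
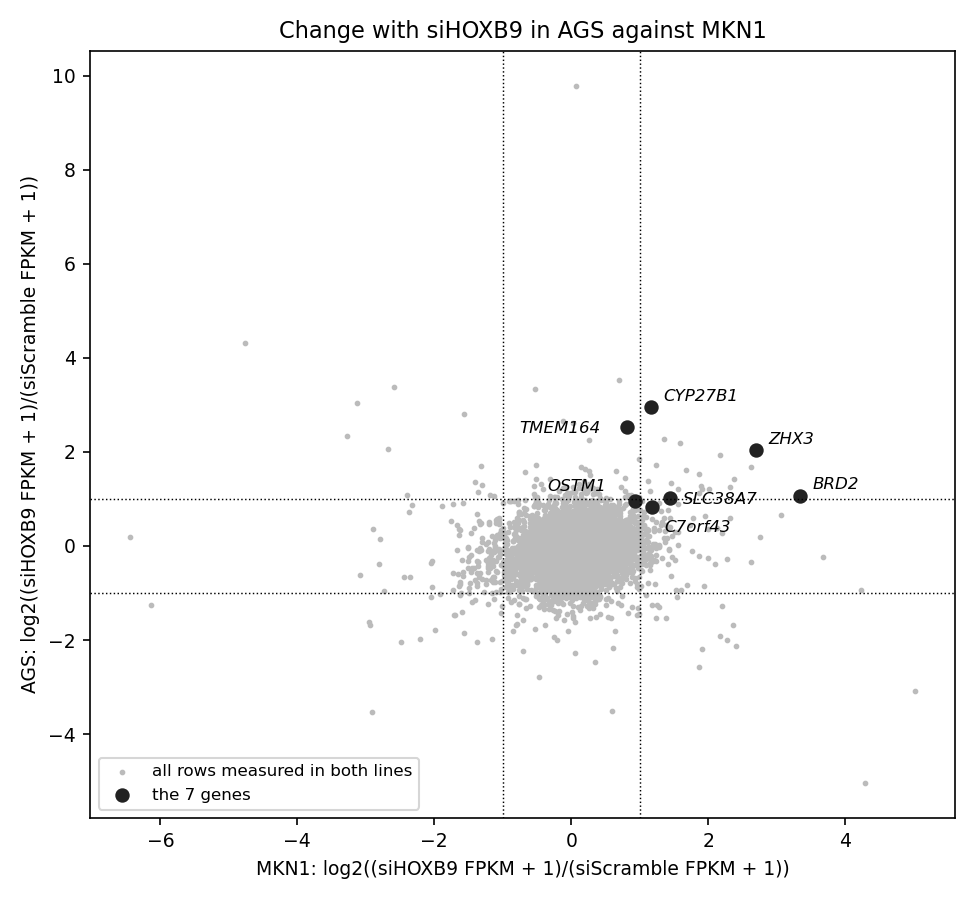
Change in AGS (vertical axis) against change in MKN1 (horizontal axis), each log2((siHOXB9 FPKM + 1)/(siScramble FPKM + 1)), with 1 grey point per row measured in both lines, the 7 genes in black and dotted lines at a change of 1 in size. BRD2 lies far to the right (3.33 in MKN1, 1.07 in AGS), CYP27B1 and TMEM164 lie high (2.95 and 2.53 in AGS), and OSTM1 lies at 0.95 and 0.93.

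The first of the nuclear genes, ZHX3, encodes a zinc fingers and homeoboxes protein that dimerizes, pairs with ZHX1 and with the NF-Y subunit NFYA, and represses transcription. The gene (ENSG00000174306.21) lies at chr20:41178448-41317672 on the minus strand in GRCh38 and has 21 transcripts in GENCODE release 29. ZHX3 had 14.04 FPKM in AGS with siHOXB9 and 2.68 FPKM in AGS with siScramble. It had 36.0 FPKM in MKN1 with siHOXB9 and 4.72 FPKM in MKN1 with siScramble. Both siHOXB9 libraries were above both siScramble libraries, and this was the largest shared change of the 7 (2.03 in AGS, 2.69 in MKN1). An estimated 645 and 128 fragments stood behind the AGS values, with siHOXB9 and with siScramble, and 1413 and 200 behind those of MKN1. The ratio of FPKM was 5.24 in AGS (95% interval 4.32 to 6.38) and 7.63 in MKN1 (6.58 to 8.90). These intervals, here and for the other genes, are Clopper-Pearson intervals that cover counting error only and not the spread between cultures.

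Relatives and partners of ZHX3 did not show changes of that size. ZHX1 had 5.54 FPKM with siHOXB9 and 5.05 FPKM with siScramble in AGS, and 8.41 FPKM with siHOXB9 and 12.0 FPKM with siScramble in MKN1, changes of 0.11 and -0.47. ZHX2 was at 0 in both AGS libraries and at 1.08 FPKM with siHOXB9 and 1.02 FPKM with siScramble in MKN1. Among other zinc finger homeobox genes, 1 of 7 measured in AGS and 0 of 9 in MKN1 were higher by the size rule, and none was lower in either line. That gene was ZFHX2, at 1.55 FPKM with siHOXB9 and 0.25 FPKM with siScramble in AGS and at 0 in both MKN1 libraries. None of the 3 NF-Y subunit genes passed the size rule in either line, and their median change was -0.19 in AGS and 0.36 in MKN1.

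Of the exonic bases of ZHX3, 268 (2.31%) also lie in exons of PLCG1 on the opposite strand. The labels describe no step that keeps strand, so fragments from those bases cannot be told apart. PLCG1, a phospholipase of receptor signalling, had 54.7 FPKM with siHOXB9 and 46.5 FPKM with siScramble in AGS, and 25.4 FPKM with siHOXB9 and 25.8 FPKM with siScramble in MKN1. The level difference, siHOXB9 minus siScramble, was 11.4 FPKM for ZHX3 and 8.20 FPKM for PLCG1 in AGS, and 31.3 FPKM for ZHX3 and -0.35 FPKM for PLCG1 in MKN1. With the values of both genes added, a sum in which PLCG1 is the larger part except in the MKN1 siHOXB9 library, the change was 0.47 in AGS and 0.99 in MKN1, both under the size rule. LPIN3, the next coding gene on the other side at 23248 bases, had 16.7 FPKM with siHOXB9 and 8.73 FPKM with siScramble in AGS (change 0.86), and 3.53 FPKM with siHOXB9 and 3.03 FPKM with siScramble in MKN1 (change 0.17). The coding transcripts of ZHX3 run from 490 to 10030 bases, so an FPKM value for the gene depends on which of them carried the fragments, and the table gives no split by transcript.

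BRD2 is a BET protein with paired bromodomains that bind acetylated histone H4 and recruit transcription machinery. The gene (ENSG00000204256.12) lies at chr6:32968660-32981505 on the plus strand, within the major histocompatibility complex (MHC), and has 19 transcripts. BRD2 had 12.0 FPKM in AGS with siHOXB9 and 5.17 FPKM in AGS with siScramble. It had 13.4 FPKM in MKN1 with siHOXB9 and 0.429 FPKM in MKN1 with siScramble. The siHOXB9 libraries were alike and the MKN1 siScramble library alone was near 0, so the large MKN1 ratio rests on a control of 0.429 FPKM. That ratio was 31.3 (95% interval 18.9 to 54.7), with an estimated 459 fragments with siHOXB9 and 15.9 with siScramble. In AGS the ratio was 2.32 (1.97 to 2.74), from 480 fragments with siHOXB9 and 215 with siScramble, and the ratio of the lines' ratios, 13.5, was the largest of the 7 genes.

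BRD3, a BET relative of BRD2, had near-equal levels with both siRNAs. It had 23.9 FPKM with siHOXB9 and 22.8 FPKM with siScramble in AGS, and 12.2 FPKM with siHOXB9 and 13.5 FPKM with siScramble in MKN1. The testis gene BRDT was listed at 0 in all 4 libraries. In both control libraries BRD2 thus had a lower FPKM than BRD3. Of 33 other bromodomain genes measured in AGS and 34 in MKN1, none passed the size rule in either direction. The 7 genes of P-TEFb, the elongation kinase that BET proteins engage, and its inhibitors did not pass it either. Among them HEXIM1, which rises in many cell types when BET proteins are inhibited, had 17.0 FPKM with siHOXB9 and 13.5 FPKM with siScramble in AGS, and 19.8 FPKM with siHOXB9 and 18.2 FPKM with siScramble in MKN1.

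The region around BRD2 was poorly covered by the table. Of 146 protein-coding genes between GABBR1 and KIFC1, 23 (15.8%) reached 1 FPKM in any library and 83 (56.8%) were listed at 0 in all 4. On the rest of chromosome 6, 512 of 829 coding genes (61.8%) reached 1 FPKM and 19.1% were at 0 in all. Picked after their values were seen, RPS18, a ribosomal protein gene that every cell uses, was listed at 0 except for 0.232 FPKM in AGS siScramble, and the tubulin gene TUBB was at 0.146 FPKM or less in all 4 libraries. FLOT1, picked in the same way, was listed at 0 in all. CSNK2B, also picked so, was measured in every library. It had 3.64 FPKM with siHOXB9 and 2.56 FPKM with siScramble in AGS, and 3.18 FPKM with siHOXB9 and 3.36 FPKM with siScramble in MKN1. The 29 other RPS genes, which lie outside the region, had a median of 1519 FPKM with siHOXB9 and 1774 FPKM with siScramble in AGS, and 1587 FPKM with siHOXB9 and 1679 FPKM with siScramble in MKN1. BRD2 thus stands among neighbours most of which are listed at or near 0, and the part of this in its values was not tested. HLA-DMA, which shares 55 exon bases with BRD2 on the opposite strand, and HLA-DOA on the other side were listed at 0 in all libraries. BRD2 also shares 243 exon bases with AL645941.1 on its own strand, listed at 0 in all, and 577 with AL645941.3 on the opposite strand, which had no row. Of the region's measured coding genes, 2 of 16 in AGS and 4 of 20 in MKN1 were higher by the size rule, and 3 and 1 were lower. Of coding genes outside the region, 95 of 10596 measured in AGS and 141 of 10633 in MKN1 were higher, a smaller share in both lines, and 153 and 116 were lower. The region's counts include BRD2 itself and were not tested.

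CYP27B1, the 1-alpha-hydroxylase of vitamin D, is a mitochondrial cytochrome P450 best known in the kidney and also made in epithelia and macrophages. The gene (ENSG00000111012.9) lies at chr12:57762334-57768986 on the minus strand and has 7 transcripts. CYP27B1 had 9.95 FPKM in AGS with siHOXB9 and 0.418 FPKM in AGS with siScramble. It had 6.68 FPKM in MKN1 with siHOXB9 and 2.42 FPKM in MKN1 with siScramble. Both siHOXB9 libraries were above both controls, and the AGS control was near 0. Behind the AGS values stood an estimated 284 fragments with siHOXB9 and 12.4 with siScramble, and the ratio of 23.8 had a 95% interval of 13.9 to 48.1. The MKN1 ratio was 2.76 (2.05 to 3.73), from 163 fragments with siHOXB9 and 63.8 with siScramble. The gene was chosen on these changes, so the gap between the lines' ratios is a description and was not tested.

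On the scale with 1 FPKM added, the other measured genes of vitamin D metabolism had smaller changes than CYP27B1 in each line. As a plain FPKM ratio, CYP2R1 in MKN1 was above CYP27B1, from a control under 1 FPKM. CYP2R1, the liver 25-hydroxylase, had 6.94 FPKM with siHOXB9 and 4.55 FPKM with siScramble in AGS, and 1.89 FPKM with siHOXB9 and 0.476 FPKM with siScramble in MKN1, changes of 0.52 and 0.97. FDXR, the reductase that feeds electrons to mitochondrial P450 enzymes, had 46.7 FPKM with siHOXB9 and 67.0 FPKM with siScramble in AGS, and 20.7 FPKM with siHOXB9 and 13.0 FPKM with siScramble in MKN1, so its sign differed between the lines. None of the 4 other measured genes of vitamin D metabolism passed the size rule in either line. The catabolic enzyme CYP24A1, the classical target of the vitamin D receptor, stayed under 1 FPKM: 0.0266 FPKM with siHOXB9 and 0 with siScramble in AGS, and 0.946 FPKM with siHOXB9 and 0.089 FPKM with siScramble in MKN1. The receptor VDR itself had 2.02 FPKM with siHOXB9 and 1.94 FPKM with siScramble in AGS, and 35.0015 FPKM with siHOXB9 and 28.8 FPKM with siScramble in MKN1. Of VDR and its targets, 1 of 6 measured in AGS and 1 of 7 in MKN1 were higher by the size rule and none was lower. These were the calcium channel TRPV6 in AGS, at 4.74 FPKM with siHOXB9 and 0.384 FPKM with siScramble, and the cell cycle inhibitor CDKN1A in MKN1, at 74.9 FPKM with siHOXB9 and 35.7 FPKM with siScramble. TRPV6 was listed at 0 in both MKN1 libraries, and CDKN1A had a change of 0.11 in AGS.

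CYP27B1 shares 107 exon bases (3.11% of its exons) with METTL1, a tRNA methyltransferase gene on the same strand. METTL1 had 7.70 FPKM with siHOXB9 and 12.5 FPKM with siScramble in AGS, and 29.01 FPKM with siHOXB9 and 23.6 FPKM with siScramble in MKN1. In AGS the level difference was 9.53 FPKM for CYP27B1 and -4.83 FPKM for METTL1, which are of opposite sign. In MKN1 both differences were positive, 4.26 FPKM for CYP27B1 and 5.42 FPKM for METTL1. With the values of both genes added, the change was 0.42 in AGS and 0.44 in MKN1. That sum, in which METTL1 is the larger part except in the AGS siHOXB9 library, passes the size rule in neither line. Whether fragments moved between the 2 rows was not tested.

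SLC38A7 (also SNAT7) carries glutamine and asparagine out of the lysosome. The gene (ENSG00000103042.8) lies at chr16:58665109-58685104 on the minus strand and has 16 transcripts. It had 21.4 FPKM in AGS with siHOXB9 and 10.04 FPKM in AGS with siScramble, and 28.7 FPKM in MKN1 with siHOXB9 and 9.93 FPKM in MKN1 with siScramble. The control libraries were close to each other and both were exceeded by both siHOXB9 libraries. The ratio was 2.13 in AGS (1.93 to 2.37) and 2.89 in MKN1 (2.61 to 3.21), with at least 492 estimated fragments in every library. SLC38A7 shares no exon with another gene. Its coding neighbours CNOT1 and GOT2 had changes of -0.34 and -0.38 in AGS and 0.40 and 0.06 in MKN1.

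Other SLC38 genes had mixed values. Of those, 0 of 5 measured in AGS were past the size rule, and in MKN1 1 of 7 was higher and 1 was lower. SLC38A6 had 14.3 FPKM with siHOXB9 and 4.94 FPKM with siScramble in MKN1 (change 1.36), and 13.1 FPKM with siHOXB9 and 10.4 FPKM with siScramble in AGS (0.31). SLC38A9, the lysosomal arginine sensor of the mTORC1 pathway, had 3.30 FPKM with siHOXB9 and 8.29 FPKM with siScramble in MKN1 (-1.11), and 14.5 FPKM with both siRNAs in AGS (0.01). Among genes of glutamine and asparagine handling, 4 of 11 measured in AGS were lower, where 2.21% of all measured rows were, and none was higher, and 0 of 10 in MKN1 passed in either direction. In AGS, asparagine synthetase ASNS had 23.1 FPKM with siHOXB9 and 76.0 FPKM with siScramble, and the plasma membrane glutamine carrier SLC1A5 had 211 FPKM with siHOXB9 and 450 FPKM with siScramble. In MKN1 their changes were -0.38 and 0.13. Other plasma membrane carriers of glutamine or neutral amino acids had changes of both signs in AGS, -1.07 for SLC7A5, -0.58 for SLC38A2 and 0.67 for SLC7A6.

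OSTM1 is the beta subunit that stabilizes the lysosomal chloride-proton exchanger CLC-7, and its loss causes osteopetrosis. The gene (ENSG00000081087.14) lies at chr6:108041409-108165854 on the minus strand and has 7 transcripts. It had 24.5 FPKM in AGS with siHOXB9 and 12.2 FPKM in AGS with siScramble, and 24.7 FPKM in MKN1 with siHOXB9 and 12.5 FPKM in MKN1 with siScramble. OSTM1 was the most even of the 7 genes, since levels in the lines were nearly equal under each siRNA. Its ratio was 2.01 in AGS (1.83 to 2.21) and 1.98 in MKN1 (1.79 to 2.19), and on the scale with 1 FPKM added its changes of 0.95 and 0.93 were just under the size rule. At least 606 estimated fragments stood behind each value, and no exon is shared with another gene.

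CLCN7, which encodes the partner of OSTM1, had 160 FPKM with siHOXB9 and 122 FPKM with siScramble in AGS, and 138 FPKM with siHOXB9 and 98.7 FPKM with siScramble in MKN1, changes of 0.39 and 0.48. None of 5 measured CLC genes passed the size rule in either line, though 4 of 5 changes in AGS and 5 of 5 in MKN1 were above 0. Other osteopetrosis genes gave the same count of 0, of 5 measured in AGS and of 3 in MKN1. Of the lysosome genes, 0 of 27 measured in AGS passed the size rule, with 18 above 0 and a median of 0.19, and 1 of 28 in MKN1 was lower, with 22 above 0 and a median of 0.22. The medians of all rows, -0.06 and 0.09, were lower than both. By these medians, most of all measured rows were below 0 in AGS and above 0 in MKN1. CTSA, a lysosomal protease, had 411 FPKM with siHOXB9 and 244 FPKM with siScramble in AGS, and 278 FPKM with siHOXB9 and 203 FPKM with siScramble in MKN1. The gene past the rule was LAMTOR3, a scaffold of the Ragulator complex, at 4.65 FPKM with siHOXB9 and 11.3 FPKM with siScramble in MKN1. SEC63, the nearest coding neighbour on the left of OSTM1, had changes of -0.15 in AGS and -0.65 in MKN1. NR2E1, on the opposite strand and 204 bases from the GENCODE limit of OSTM1, was listed at 0 in all libraries. The RefSeq start window of OSTM1 (chr6:108074692-108074991) lies well inside the GENCODE span and farther from NR2E1.

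TMEM164 transfers arachidonate to ether phosphatidylethanolamine, a lipid class that peroxidizes in ferroptosis. The gene (ENSG00000157600.11) lies at chrX:110002631-110182734 on the plus strand and has 8 transcripts. It had 33.7 FPKM in AGS with siHOXB9 and 5.01 FPKM in AGS with siScramble. In MKN1 it had 9.02 FPKM with siHOXB9 and 4.67 FPKM with siScramble. The controls were alike and the AGS siHOXB9 library stood far above the other 3. The ratio was 6.74 in AGS (6.01 to 7.57), from an estimated 2238 fragments with siHOXB9 and 345 with siScramble. In MKN1 it was 1.93 (1.66 to 2.24), from 512 fragments with siHOXB9 and 287 with siScramble, and the change there of 0.82 was under the size rule. TMEM164 shares no exon with another gene. AMMECR1, the next coding gene at 11452 bases on the opposite strand, had 19.2 FPKM with siHOXB9 and 8.33 FPKM with siScramble in MKN1 (change 1.12), and 12.6 FPKM with siHOXB9 and 9.65 FPKM with siScramble in AGS (0.35). ACSL4, the coding gene on the other side and itself an arachidonate-activating enzyme of ferroptosis, had 14.8 FPKM with siHOXB9 and 13.3 FPKM with siScramble in AGS, and 15.2 FPKM with siHOXB9 and 17.6 FPKM with siScramble in MKN1.

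Of other ether lipid and ferroptosis genes, 0 of 15 measured in AGS passed the size rule, and 1 of 13 in MKN1 was higher. That gene was PLA2G6, a phospholipase A2, at 5.52 FPKM with siHOXB9 and 1.43 FPKM with siScramble in MKN1, and at 7.27 FPKM with siHOXB9 and 5.46 FPKM with siScramble in AGS. The cystine carrier SLC7A11 had changes of opposite sign, -0.64 in AGS and 0.64 in MKN1. The list's median was 0.05 in AGS and 0.27 in MKN1.

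C7orf43 (TRAPPC14 in RefSeq) is a subunit of the TRAPPII complex and helps tether vesicles that carry Rabin8 to the centrosome when cilia form. The gene (ENSG00000146826.16) lies at chr7:100154420-100158715 on the minus strand and has 10 transcripts. It had 21.2 FPKM in AGS with siHOXB9 and 11.5 FPKM in AGS with siScramble, and 28.1 FPKM in MKN1 with siHOXB9 and 11.9 FPKM in MKN1 with siScramble. Controls were again nearly equal, and both siHOXB9 libraries were above them. The ratio was 1.84 in AGS (1.61 to 2.11) and 2.37 in MKN1 (2.07 to 2.72), with at least 309 estimated fragments per library, and the AGS change of 0.83 was the smallest of the 7 there.

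C7orf43 has the largest share of its exons in common with a neighbour, 356 bases (10.9%) with LAMTOR4 on the opposite strand. LAMTOR4, a Ragulator subunit, was more abundant, with 170 FPKM with siHOXB9 and 175 FPKM with siScramble in AGS, and 152 FPKM with siHOXB9 and 130 FPKM with siScramble in MKN1. The level difference in AGS was 9.70 FPKM for C7orf43 and -5.33 FPKM for LAMTOR4, and in MKN1 it was 16.3 FPKM for C7orf43 and 21.7 FPKM for LAMTOR4. With the values of C7orf43 and of the genes that share its exons added, most of which is LAMTOR4, the change was 0.03 in AGS and 0.34 in MKN1. MIR4658, which shares 36 bases with C7orf43 on its own strand, was listed at 0 in all libraries. GAL3ST4, 529 bases away on the same strand, had 12.1 FPKM with either siRNA in AGS and 0 in both MKN1 libraries. None of the 14 other TRAPP genes measured in each line passed the size rule. Their median was -0.06 in AGS, with 6 above 0, and 0.26 in MKN1, with 12 above 0. The median of all measured rows was -0.06 in AGS and 0.09 in MKN1. TRAPPC4, a core subunit, had 38.9 FPKM with siHOXB9 and 49.9 FPKM with siScramble in AGS, and 54.8 FPKM with siHOXB9 and 35.2 FPKM with siScramble in MKN1. None of 12 genes of the Rabin8 and cilium list passed in either line, and RAB3IP, which encodes Rabin8, had changes of -0.23 and -0.37.

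**Figure D3:**
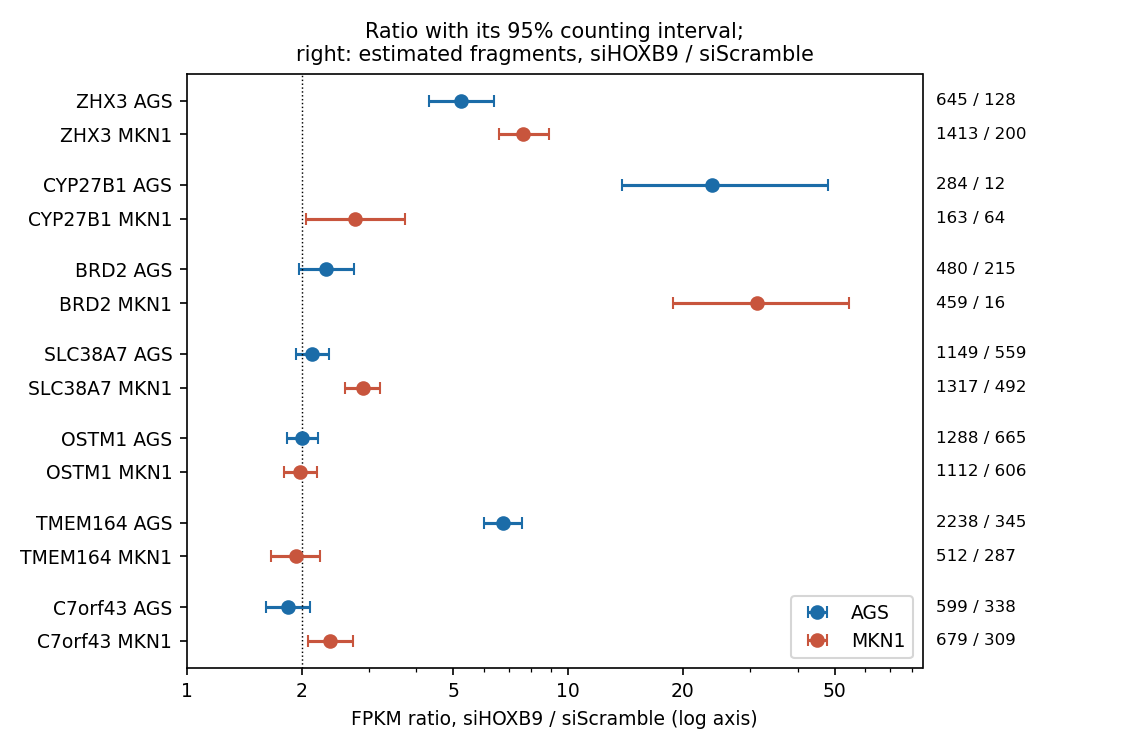
Ratio of siHOXB9 FPKM to siScramble FPKM for each gene and line on a log axis, with 95% intervals from estimated fragments that cover counting error only. The genes were chosen on these changes, so the intervals are a description. OSTM1 is at 2.01 in AGS and 1.98 in MKN1, while the widest intervals belong to CYP27B1 in AGS (13.9 to 48.1) and BRD2 in MKN1 (18.9 to 54.7), whose controls held an estimated 12.4 and 15.9 fragments.

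**Figure D4:**
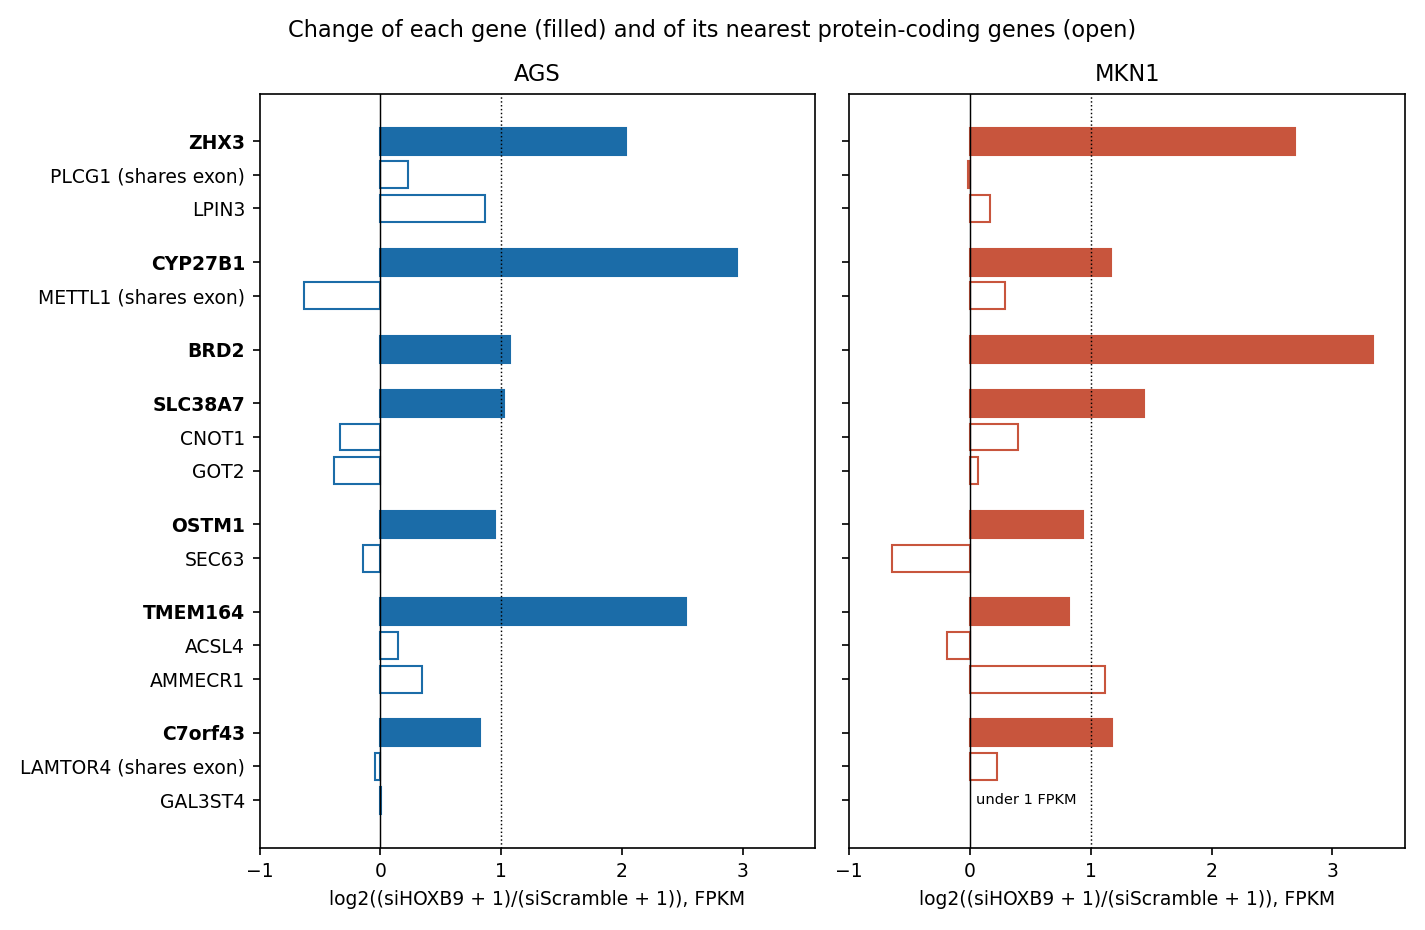
Change of each of the 7 genes (filled bars) and of its nearest protein-coding genes with at least 1 FPKM (open bars), in AGS and in MKN1, as log2((siHOXB9 FPKM + 1)/(siScramble FPKM + 1)) with a dotted line at 1. LPIN3 in AGS (0.86) and AMMECR1 in MKN1 (1.12) are the highest of the open bars.

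**Figure D5:**
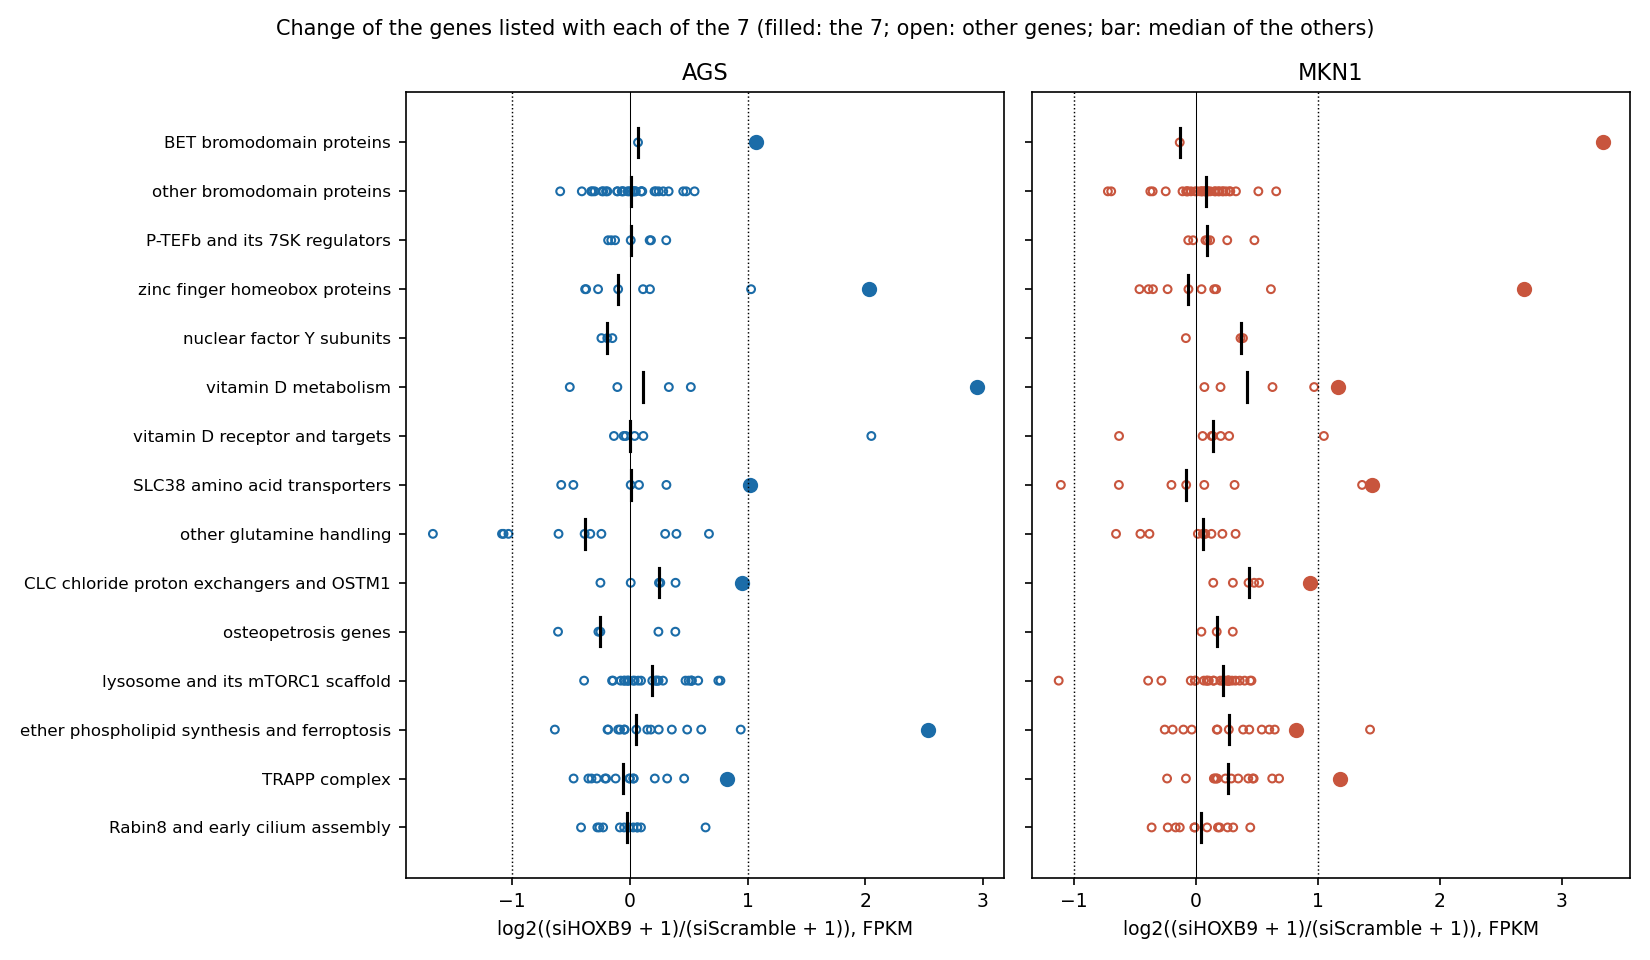
Change in AGS and in MKN1, as log2((siHOXB9 FPKM + 1)/(siScramble FPKM + 1)), of the 7 genes (filled points) and of the other measured genes of their pathway or family lists (open points), with a black bar at the median of the open points and dotted lines at -1 and 1. Most open points lie between the dotted lines, and glutamine handling in AGS has the most below -1 (4 of 11).

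Exon sharing and transcript number, which can affect an FPKM value, were set beside those of other coding genes. Exons were shared with another annotated gene for 4 of the 7, against 49.4% of 11662 protein-coding rows with at least 1 FPKM. The genes had 7 to 21 transcripts with a median of 10, against a median of 8 over those rows. Coding rows that share an exon were higher by the size rule in 0.771% of cases in AGS and 1.31% in MKN1, and those that share none in 1.06% and 1.42%. Rows with more than 10 transcripts gave 0.704% in AGS and 1.49% in MKN1, and rows with 5 or fewer gave 1.06% and 1.18%. SLC38A7, OSTM1 and TMEM164 were the genes with no shared exon, and SLC38A7 was the only one of these with a change of at least 1 in both lines.

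The genes with the most similar pattern over the 4 libraries, by Euclidean distance between centred log2(FPKM + 1) values among 9618 coding genes, were found for each gene in turn. C7orf43 was nearest to SLC38A7, at a distance of 0.23. YJEFN3 was nearest to C7orf43 (0.18) and POLR2J3 to OSTM1 (0.17), so these patterns were close. ZNF778, a zinc finger gene, was nearest to ZHX3 (0.78), with 4.62 FPKM with siHOXB9 and 0.932 FPKM with siScramble in AGS and 15.1 FPKM with siHOXB9 and 3.40 FPKM with siScramble in MKN1. TRANK1 was nearest to TMEM164 (0.38), with 5.47 FPKM with siHOXB9 and 0.567 FPKM with siScramble in AGS. In MKN1 TRANK1 had 0.938 FPKM with siHOXB9 and 0.131 FPKM with siScramble, under the 1 FPKM minimum for a measured row. RGS12 was nearest to BRD2 only at 1.03, and TMEM164 to CYP27B1 at 1.37, so no close match existed for either. The distances rest on 4 libraries and are a description. They use the same values as the choice of genes, so closeness among the chosen genes follows in part from that choice.

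The difference in level between lines was not itself the rule of choice, though it uses the same values as that rule. It was tested across all 4 libraries with limma, with the siRNA as a term. The test asks whether MKN1 and AGS cells carry these transcripts at different levels whichever siRNA they received. Its error is not independent of the choice. It rests in part on how far the lines' changes with siHOXB9 disagree, and those changes were used to choose the genes. Of 13758 rows tested, 37.1% were called at an adjusted p of at most 0.05 and a difference of at least 1, and 0 of the 7 genes were called. A shared increase needs a level in both lines, and all 7 genes reached 5 FPKM in a library of each line. The rows tested needed 1 FPKM in any 2 libraries, so they include genes measured in only 1 line. The share of rows called and the count of the 7 are therefore not a like comparison. Of the 7, 2 had an unadjusted p under 0.05 and 1 had an adjusted p under 0.05. ZHX3 had a mean log2(FPKM + 1) of 3.86 in MKN1 and 2.89 in AGS, a difference of 0.97 (SE 0.24, adjusted p = 0.0100), higher in MKN1 under both siRNAs and just under the size limit. TMEM164 had a mean of 2.91 in MKN1 and 3.85 in AGS, a difference of -0.94 (SE 0.38, adjusted p = 0.0661). BRD2 had 2.18 in MKN1 and 3.16 in AGS, a difference of -0.98 (SE 0.47, adjusted p = 0.112), and its SE was the widest of the 7.

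For the remaining genes the difference was smaller than its error or near it. CYP27B1 differed by 0.38 (SE 0.40, adjusted p = 0.437), C7orf43 by 0.21 (SE 0.20, adjusted p = 0.385), SLC38A7 by 0.20 (SE 0.20, adjusted p = 0.439) and OSTM1 by 0.02 (SE 0.19, adjusted p = 0.928). A p above the threshold does not show equal levels, since each line had 2 libraries that differ in siRNA and the fit left 1 residual degree of freedom per gene. The siScramble libraries alone, 1 per line, hold values that also entered the choice of genes, so their line ratios are a description. There, BRD2 in MKN1 was at 8.30% of its AGS level and CYP27B1 at 580%, while SLC38A7 was at 98.9%, OSTM1 at 102%, TMEM164 at 93.3%, C7orf43 at 103% and ZHX3 at 176%. In the siHOXB9 libraries BRD2 was at 112%, CYP27B1 at 67.1% and TMEM164 at 26.7%. ZHX3 was at 256% there, and TMEM164 and ZHX3 were the genes farthest from equal between the siHOXB9 libraries.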

How the data were processed

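The 4 RNA-seq libraries came from AGS and MKN1 cells, with 1 for each siRNA in each line. The authors deposited 1 table of FPKM values with 57815 rows by symbol and 1 column per library. Per the submitters' processing notes the builds are GRCh38 and hg38. The aligner, counting tool and annotation were not given in the sources used here. Gene models came from GENCODE release 29, which matched 34413 rows.

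Changes were log2 ratios after adding 1 FPKM, a scale that understates the change of low genes, and rows needed 1 FPKM in either library of a line. Depth was estimated from low FPKM values of 5242 single-transcript genes. The depth and the shortening of lengths were those with the largest share of values within 0.05 of a whole fragment. With lengths shortened by 260 bases, that share was 66.7% to 70.6% of 289 to 327 values. The share was maximized by the fit, so it is no separate check of the depth. Fragments behind a value are therefore estimates for 1 transcript length per gene. Line differences were tested with limma 3.58.1 (R 4.3.3) on log2(FPKM + 1), two-sided, for rows with 1 FPKM in 2 libraries, Benjamini-Hochberg adjusted over all of them, and checked on simulated data. Other steps used Python 3.11.15, pandas 2.3.3 and scipy 1.17.1. The genes and the 19 lists were chosen with earlier results of these data known. Named genes were the 7, HOXB9, genes that share exons or adjoin, up to 3 genes of each list with the largest change in a line besides partners and relatives, the nearest pattern, and the ranks at the limit. RPS18, TUBB, FLOT1 and CSNK2B were added after their values were seen. Of the lists, 1 gene is not reported here.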

Additional observations from a re-analysis of the deposited data

How the results depend on the processing

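Every change of the 7 genes remained above 0 under every setting tried. The genes were chosen on these same values, so the kept sign is a description and no support for a rise. With 5 FPKM added, 3 genes passed the 2-fold size rule in AGS and 3 in MKN1, against 5 in each as reported. Limited to coding genes with no shared exon, 2 of 3 passed in AGS and 1 of 3 in MKN1, since the other 4 genes are left out. With exon-sharing genes summed, 3 passed in AGS and 2 in MKN1. Then ZHX3 had changes of 0.47 in AGS and 0.99 in MKN1, and C7orf43 had 0.03 and 0.34. Adding an abundant neighbour that changed less makes a change smaller whether or not fragments were shared. The part of exon sharing was therefore not tested by this setting. With 0.1 FPKM added, with rescaled totals, with centring on the median row or with quantile normalization, 6 passed in AGS and 5 in MKN1, and at 1.5-fold 7 passed in each. Rows past the rule numbered 223 in AGS and 276 in MKN1 as reported, 452 and 570 with 0.1 FPKM added, 39 and 45 with 5 FPKM added, 101 and 128 with a filter of 5 FPKM, 747 and 1045 at 1.5-fold, and 56 and 75 with no shared exon.

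Between MKN1 and AGS, 1 gene was called, against 0 as reported, with 0.1 FPKM added and with quantile normalization. In both cases it was ZHX3, with a difference of 1.07 and 1.11. With no filter 2750 of 24308 rows were called, against 5109 of 13758. The adjusted p of ZHX3 was 0.129 with no filter and 0.464 with no siRNA term, and TMEM164 reached 0.0429 with a filter of 5 FPKM, with its difference still under the size limit. In the siHOXB9 libraries alone the sign turned for CYP27B1 (-0.51) and BRD2 (0.15), and in the siScramble libraries alone for SLC38A7 (-0.01). No paired analysis was possible because the labels carry no replicate numbers and each line and siRNA had 1 library, other than through the siRNA term, which pairs the lines' libraries. Without that term the SE of ZHX3 was 1.04, against 0.24 with it. Leaving out a library leaves no pair in its line, so no such value was made. The cause of these shifts was not tested.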
